A study of Mus musculus with 8 samples.

Results

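Surfactant-expressing cells in 2 mouse lung tumors, profiled by single-cell RNA sequencing, were chosen by their own measured transcripts. A barcode with at least 200 detected genes was a member when its unique molecular identifiers (UMIs, each counting 1 captured RNA molecule) of Sftpa1, Sftpb, Sftpd, Slc34a2 and Lamp3 summed to at least 3 and to no less than its sum of the 7 keratin and junction genes Krt7, Krt8, Krt18, Krt19, Epcam, Cldn4 and Cldn7. Barcodes with more than 1 UMI of Csf3r and Cxcr2, of C1qa, C1qb and C1qc, or of Ccr7, Fscn1 and Ccl22 were left out as neutrophils, macrophages or dendritic cells. The rule gave 53 cells out of 3894 with at least 200 genes (1.36%) and out of 4343 barcodes in all. Sftpc, the classic marker of the alveolar type 2 cell, was not used by the rule.

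The tumors arose in KP mice, a model of lung adenocarcinoma in which Cre recombinase starts the tumors and deletes p53 (p53 fl/fl). The mice were chimeras, made by injecting KP embryonic stem cells into albino C57BL/6 blastocysts, so that a tissue can hold cells of the stem cell line and of the host. Tumors were started at 12 weeks of age by intratracheal adenovirus carrying Cre under the Sftpc (SPC) promoter, which restricts the recombination to cells that use this promoter, and were taken 16 weeks later. Tumor 1 and Tumor 2 came from 1 mouse each, 1 male and 1 female, though the sources used here do not say which mouse gave which tumor. Each tumor gave 3 Seq-Well arrays of non-photoactivated cells (Whole Tumor) and 1 library of photoactivated cells sorted from the Healthy/Tumor Border. The arrays are technical replicates of a tumor, so their spread does not hold differences between mice, and p-values compare these tumors and not groups of mice. All cells had been dissociated and sorted as live before capture.

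Alveolar type 2 cells line the air sacs and make surfactant, a film of phospholipid and protein that keeps the alveoli open. Surfactant proteins B and C (Sftpb, Sftpc) spread the lipid film, while surfactant proteins A and D (Sftpa1, Sftpd) are collectins that bind microbes. The lipid is built by enzymes such as Scd1, Fasn and Lpcat1, loaded by the transporter Abca3 into lamellar bodies, whose membrane carries Lamp3, and secreted. Type 2 cells also renew the flat type 1 cells of the gas-exchange surface and are a known cell of origin of KP tumors, which lose surfactant transcripts and gain keratins as they progress.

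Nkx2-1, the lung lineage transcription factor, is known to drive the surfactant genes. The 6-base core of its binding site, CTCAAG, was looked for in the 250 bases before the RefSeq start of the markers. A match on the opposite strand reads CTTGAG and was counted too. RefSeq promoters (GRCm38.p6) matched 5 of the 8 markers by symbol. Sftpb held 2 matches, starting 100 and 15 bases before the start, and Sftpa1 held 1, at 166 bases, while Slc34a2, Lamp3 and Cxcl15 held none. The Slc34a2 window (chr5:53049103-53049352) lies inside the gene as placed by the GRCm38 annotation used below (53038081-53071664, plus strand). The bases before that start were not searched. Among all 32851 promoter windows of this length 13.3% held the core at least once and 0.998% at least 2 times. The windows of Sftpb (chr6:72304360-72304609) and Sftpa1 (chr14:41131538-41131787), both on the plus strand, are shown because the choice of the cells turns on these genes and, of the 5, only they held a match, with the matches in capitals. A match is a description of the letters and not evidence of binding.
Sftpb: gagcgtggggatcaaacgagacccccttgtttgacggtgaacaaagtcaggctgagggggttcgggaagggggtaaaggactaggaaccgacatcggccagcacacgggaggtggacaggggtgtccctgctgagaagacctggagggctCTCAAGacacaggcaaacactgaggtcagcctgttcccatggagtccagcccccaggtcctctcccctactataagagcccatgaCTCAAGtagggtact
Sftpa1: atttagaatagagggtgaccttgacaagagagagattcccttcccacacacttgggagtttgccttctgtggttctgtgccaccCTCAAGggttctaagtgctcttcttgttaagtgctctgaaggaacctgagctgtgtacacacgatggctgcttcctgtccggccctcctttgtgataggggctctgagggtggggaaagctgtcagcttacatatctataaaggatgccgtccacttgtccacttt

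The 53 cells held 191951 UMIs, with a median of 2658 per cell (408 to 12607) and 1056 genes. Keratin-high cells, which served as the nearest other epithelial class (keratin and junction sum of at least 3 and above the surfactant sum, with the same exclusions, 181 cells), had a median of 2855 UMIs. Csf3r cells (795 with at least 3 UMIs of Csf3r and Cxcr2) and B cells (39) gave the background level of surfactant transcripts. The library totals ran from 405627 to 2029200 UMIs. No member shared its barcode with another library, 1 member was called a doublet, and in all 8 tables the tumor number inside the cell names is the opposite of the labelled one. The labels were followed, and under them the barcodes of each tumor and region number the same as the cells stated in the methods. Few cells carried much of each sum: the deepest member held between 19.1% of the member UMIs (Whole Tumor 1, array 2) and 60.0% (Whole Tumor 2, array 3) of its library.

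All 8 markers of type 2 cells were found in the members, which as a group are called alveolar type 2-like on these markers. Sftpb was present in 52 of the 53 cells, Sftpd in 41, Sftpa1 in 36, Slc34a2 in 28 and Lamp3 in 27; these 5 genes chose the cells, so their presence is no finding. Of the markers that the rule did not use, Sftpc was present in 36 members (67.9%), Cxcl15, a chemokine of lung epithelium, in 35 and Scd1, the stearoyl-CoA desaturase that makes monounsaturated fatty acids, in 34. Sftpc was found in 1.26% of Csf3r cells (median 2496 UMIs), 2.56% of B cells (median 3241 UMIs) and 6.08% of keratin-high cells; Csf3r and B cells should lack it. Scd1 was found in 1.13% of Csf3r cells but in 71.8% of B cells, where it was at 766 counts per 1000000 UMIs (CPM) against 4340 in members, so its presence did not set the members apart from B cells. With each cell thinned to 1000 UMIs, which left out 5 shallower members, the share with Sftpc was 64.6% in members, 0.543% in Csf3r cells and 2.44% in keratin-high cells.

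The surfactant sum of the members ranged from 3 to 553 UMIs with a median of 32, and their keratin and junction sum from 0 to 66 with a median of 5. All 5 surfactant genes of the rule were seen together in 14 cells, at least 3 of them in 38 and only 1 of them in 6. Sftpb was also found in 29.3% of keratin-high cells, so single members can lie close to that class. For example, 1 member of Whole Tumor 1 array 3 had 28 surfactant UMIs, all of Sftpb, beside 27 keratin and junction UMIs and no Sftpc. At the edge of the rule, 6 cells had a sum of exactly 3 (4 of them with Sftpc, median 762 UMIs), and 16 cells just outside had a sum of 2 (4 with Sftpc, median 738 UMIs). Another 35 cells reached 3 surfactant UMIs but had more keratin and junction UMIs, with medians of 8 and 58. The neutrophil condition removed 2 deep cells with strong surfactant signal, 1 at the border of Tumor 1 (12918 UMIs, a surfactant sum of 99, 177 Sftpc UMIs) and 1 in Whole Tumor 1 array 2 (11548 UMIs, a surfactant sum of 122, 121 Sftpc UMIs).

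**Figure D1:**
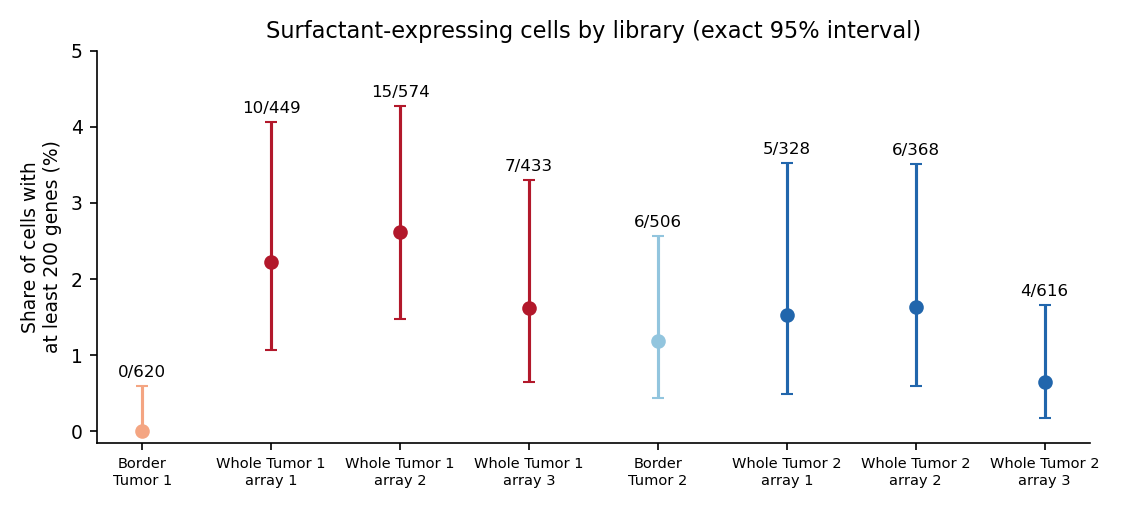
Share of surfactant-expressing cells among cells with at least 200 genes (y axis, percent) in each of the 8 libraries (x axis). Points are single libraries with exact 95% Clopper-Pearson intervals, which cover counting error only, and the numbers above them are members over cells. The intervals of all Whole Tumor arrays overlap, and the border of Tumor 1 held no member.

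Whether the tumors and the border differ in how many such cells they hold was addressed with the shares per library. In Whole Tumor 1 the members were 10 of 449 cells (2.23%), 15 of 574 (2.61%) and 7 of 433 (1.62%). In Whole Tumor 2 they were 5 of 328 (1.52%), 6 of 368 (1.63%) and 4 of 616 (0.649%). The lowest array of Tumor 1 lay within the range of Tumor 2. The means were 2.15% ± 0.503 (SD, n = 3 arrays) and 1.27% ± 0.538 (SD, n = 3), a difference of 0.884 percentage points that did not pass a two-sided exact permutation test (p = 0.2, where 0.1 is the smallest p that 3 against 3 arrays allow). The direction turned when cells with at least 500 genes were taken (-0.0138 points, exact permutation p = 1). With no condition on the keratin sum the difference was 2.82 points (4.25% against 1.42%, exact permutation p = 0.1), and without Whole Tumor 2 array 3 it was 0.575. Without members that had at least 3 UMIs of pan-leukocyte genes it was 0.306 (1.42% against 1.11%, exact permutation p = 0.7).

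Set against epithelial cells alone, the order was the opposite. Members made up 17.2% ± 2.37 (SD, n = 3) of members and keratin-high cells together in Whole Tumor 1 and 56.3% ± 26.8 (SD, n = 3) in Whole Tumor 2, with no overlap between the arrays (exact permutation p = 0.1, the smallest possible). The keratin-high cells behind this were 13.1%, 11.3% and 7.16% of the cells in the arrays of Tumor 1 and 1.52%, 0.272% and 1.30% in those of Tumor 2. A share of sorted cells cannot separate fewer cells of 1 kind from more of another.

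None of the 620 border cells of Tumor 1 was a member, which allows a share of up to 0.484% by the limit of 3 cells and of up to 0.593% by the exact 95% interval. Both limits lie below all 3 arrays of its tumor. At the border of Tumor 2 6 of 506 cells were members. This share of 1.19% (exact 95% interval 0.436% to 2.56%) lay between the lowest and the highest of its arrays. With 1 border library per tumor there is no test of these differences, and the cell that the neutrophil condition removed would have made 1 member at the border of Tumor 1.

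**Figure D2:**
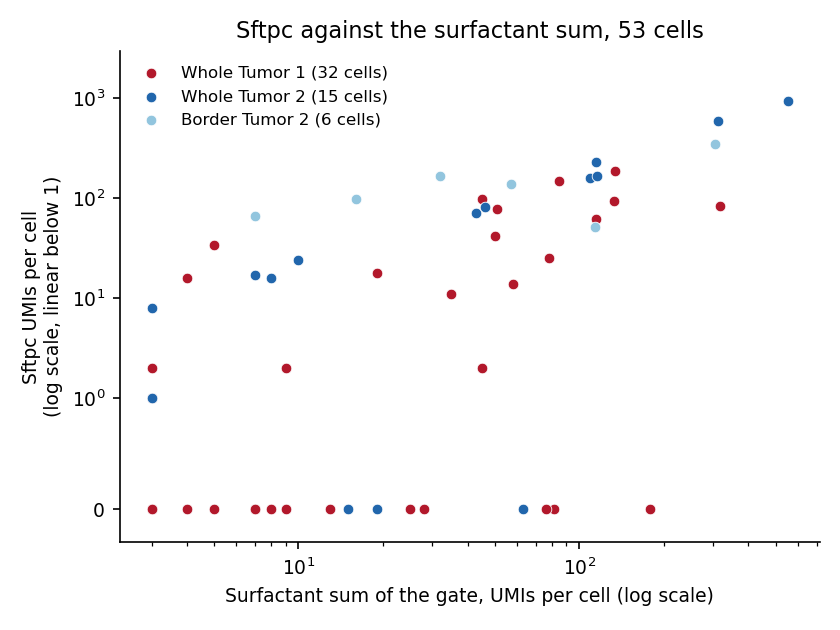
Sftpc UMIs (y axis, log scale above 1) against the sum of Sftpa1, Sftpb, Sftpd, Slc34a2 and Lamp3 (x axis, log scale) in each of the 53 members. Points are cells, coloured by group; 17 cells lie at 0 Sftpc, 14 of them from Whole Tumor 1.

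Members differed widely among themselves in Sftpc. Its UMIs ran from 0 to 938 per cell, with at least 10 in 30 cells and none in 17. The cells without Sftpc were not only the shallow ones: their median was 2342 UMIs against 3079 in cells with Sftpc, and 7 of the 25 members with at least 3000 UMIs had none. The deepest of them, in Whole Tumor 1 array 3, had 10101 UMIs, 137 of Sftpb, 15 of Sftpd, 14 of Lamp3 and 9 of Sftpa1. Sftpa1 was present in 7 of the 17 cells without Sftpc and in 29 of the 36 with it, while Ager was present in 11 and 23.

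By library, Sftpc was found in 5 of 10, 11 of 15 and 2 of 7 members in the arrays of Whole Tumor 1, in 4 of 5, 5 of 6 and 3 of 4 in Whole Tumor 2, and in 6 of 6 at the border of Tumor 2. Every array of Tumor 2 had a higher share than every array of Tumor 1, though narrowly. The nearest were 75.0% of 4 members in Whole Tumor 2 array 3 and 73.3% of 15 in Whole Tumor 1 array 2. How many other genes separate the arrays in this way by detection was not counted. Summed over arrays, the shares of members with Sftpc were 56.3% and 80.0%, and 51.7% and 76.9% at 1000 UMIs per cell. Across the 53 cells, Spearman's rho of UMIs was 0.704 between Sftpc and Sftpa1, 0.573 between Sftpc and Cxcl15, 0.583 between Sftpb and Sftpd, 0.287 between Sftpc and Sftpb and 0.014 between Sftpc and Ager. These are descriptions across cells that share libraries and differ in depth.

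**Figure D3:**
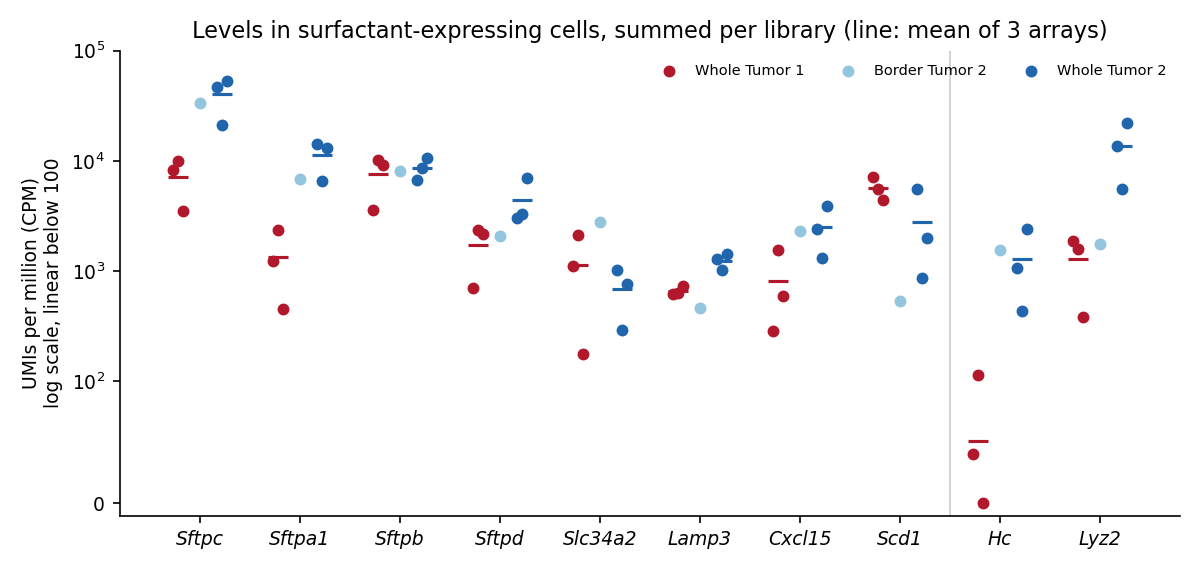
Levels of the 8 markers and of Hc and Lyz2 (x axis) in surfactant-expressing cells, as UMIs per 1000000 UMIs of the members of a library (CPM, y axis, log scale above 100). Each point is a library, and lines are means of 3 arrays; Sftpc, Hc and Lyz2, which the rule did not use, are higher in each Whole Tumor 2 array than in each Whole Tumor 1 array, and of these Hc and Lyz2 passed the test.

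Sftpc was the only secreted surfactant gene outside the rule, and whether it was called between the tumors depended on the tool, the scaling and the rule for cells. Sftpc (chr14:70520949-70524081, minus strand, in the GRCm38 annotation) was at 8201, 9923 and 3500 CPM, here per 1000000 member UMIs, in the arrays of Whole Tumor 1, at 46657, 21255 and 52704 in Whole Tumor 2 and at 33271 at the border of Tumor 2. No array of Tumor 1 reached the lowest of Tumor 2, yet the change did not pass the test (mean 7208 ± 3324 against 40206 ± 16688 CPM, SD, n = 3 arrays each; log2 change of Tumor 1 over Tumor 2 -2.35 ± 0.67 SE, edgeR adjusted p = 0.0544). It was called by DESeq2 (adjusted p = 0.00599) and by edgeR with DESeq2 size factors (0.0460) or with library sizes alone (0.0461). With no condition on the keratin sum it was called too, at a log2 change of -3.55 (edgeR adjusted p = 0.000962). That setting adds cells with more keratin and junction than surfactant UMIs. It raised the mean share from 2.15% to 4.25% in Whole Tumor 1 and from 1.27% to 1.42% in Whole Tumor 2. The part of these added cells in the call was not tested. Of the 197 genes tested, 14.7% had arrays without overlap between the tumors, 9.14% higher in Tumor 2 and 5.58% higher in Tumor 1. Single cells carried much of the Sftpc level, with 938 of the 1107 UMIs in Whole Tumor 2 array 3 and 98 of the 100 in Whole Tumor 1 array 3. Without the deepest cell of each array the log2 change was -1.23 (edgeR adjusted p = 0.549), and without members that had at least 3 pan-leukocyte UMIs it was -1.25 (0.578). In Csf3r cells of the same arrays Sftpc was at 14.6, 6.73 and 0 CPM in Tumor 1 and 6.57, 0 and 4.68 in Tumor 2.

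Sftpa1 and Sftpb chose the cells, so their levels are given without a test. Sftpa1 (chr14:41131782-41136452, plus strand, with Sftpd 35762 bases away) was at 1224, 2368 and 455 CPM in Whole Tumor 1, 14183, 6507 and 13188 in Whole Tumor 2 and 6784 at the border of Tumor 2. A single cell gave 272 of its 277 UMIs in Whole Tumor 2 array 3. Sftpb (chr6:72304610-72314371, plus strand) was at 3550, 10229 and 9135 CPM in Whole Tumor 1, 6760, 8676 and 10522 in Whole Tumor 2 and 8156 at the border.

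Of the other gate genes, Sftpd was at 694, 2352 and 2170 CPM in Whole Tumor 1, 3004, 3326 and 6999 in Whole Tumor 2 and 2058 at the border. Lamp3 was at 612, 628 and 735 CPM in Whole Tumor 1, 1281, 1012 and 1428 in Whole Tumor 2 and 457 at the border. Slc34a2, the phosphate carrier of the apical membrane, was at 1102, 2126 and 175 CPM in Whole Tumor 1, 1016, 289 and 762 in Whole Tumor 2 and 2782 at the border.

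The remaining markers were outside the rule. Cxcl15 was at 286, 1546 and 595 CPM in Whole Tumor 1, 2386, 1301 and 3904 in Whole Tumor 2 and 2287 at the border. The groups overlapped and the test was not passed (log2 change -1.57 ± 0.72 SE, edgeR adjusted p = 0.485). Cxcl15 was called in 1 of 20 alternatives, with no condition on the keratin sum (log2 change -2.55, edgeR adjusted p = 0.00971). That setting adds cells mainly in Whole Tumor 1, as given for Sftpc. Scd1 was at 7181, 5541 and 4375 CPM in Whole Tumor 1, 5567, 868 and 2000 in Whole Tumor 2 and 534 at the border, where 13 of its 14 UMIs came from 1 cell (log2 change 1.14 ± 0.74 SE, edgeR adjusted p = 0.655). The groups of Scd1 overlapped by 1 array of Tumor 2.

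Across genes, UMIs of the members were summed per array and the tumors compared with edgeR's quasi-likelihood test and Benjamini-Hochberg adjustment. Outside the 20 genes of the rule, 197 genes were abundant enough to be tested, and 2 were called at 0.05 (1.02% of the genes tested), both higher in Tumor 2, with 0 higher in Tumor 1. At an unadjusted p under 0.05 there were 16 genes. DESeq2 on the same sums called 5, namely Hc, Lyz2, Sftpc and Fasn higher in Tumor 2 and Hp higher in Tumor 1.

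Hc, which encodes complement component C5 (chr2:34983331-35061438, minus strand), had 1, 7 and 0 UMIs in the members of the Whole Tumor 1 arrays, 24, 3 and 50 in Whole Tumor 2 and 41 at the border of Tumor 2. These are 40.8, 113 and 0 CPM against 1060, 434 and 2381, and 1563 at the border, so the groups did not overlap (log2 change of Tumor 1 over Tumor 2 -4.27 ± 0.80 SE, edgeR adjusted p = 0.000494). The transcript was found in 3 of 32 members of Whole Tumor 1, in 9 of 15 of Whole Tumor 2 and in 3 of 6 at the border. In all other cells it was at 16.9 CPM in Whole Tumor 1 and 2.10 in Whole Tumor 2. The call was lost without Whole Tumor 1 array 2 (log2 change -5.52, edgeR adjusted p = 0.0587) and without Whole Tumor 2 array 3 (-3.46, 0.149), and too few UMIs were left for its test when the deepest cell of each array was taken out. Gm13449 overlaps Hc on the other strand, and the strand setting of the counting is not given in the sources used here.

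Lyz2, lysozyme, which type 2 cells share with macrophages and neutrophils, was at 1877, 1579 and 385 CPM in Whole Tumor 1, 13520, 5495 and 21948 in Whole Tumor 2 and 1753 at the border of Tumor 2 (chr10:117277331-117282321, minus strand; log2 change -3.23 ± 0.79 SE, edgeR adjusted p = 0.0167). The arrays did not overlap, but the border library of Tumor 2 sat with Tumor 1. A single cell gave 447 of the 461 Lyz2 UMIs in Whole Tumor 2 array 3, and without the deepest cell of each array the change was -1.36 with an edgeR adjusted p of 0.549. It was lost too when any 1 array other than Whole Tumor 1 array 1 was left out (edgeR adjusted p from 0.0569 to 0.387), with log2 changes from -2.50 to -3.61. Its close copy Lyz1 had 4 UMIs in all members.

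Lyz2 was also higher in Tumor 2 in cells outside the members. Keratin-high cells had 82.0 CPM of Lyz2 in Whole Tumor 1 and 10818 in Whole Tumor 2, all other cells together 1036 and 3058, and Csf3r cells 696 and 382. Of 10 measured macrophage genes, C1qa, C1qb and C1qc were held at or near 0 by the rule. Of the 6 others beside Lyz2, Mrc1 and Msr1 were at 0 in all members, and the 6 summed to 0.966 to 14.3 UMIs per 10000 in the arrays of Tumor 1, to 1.43 to 5.78 in those of Tumor 2 and to 25.5 at the border of Tumor 2, where Lyz2 was low. The part of free RNA or of other cells in the Lyz2 result was not tested.

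No gene passed edgeR's test in the direction of Tumor 1. Among those with the smallest p were Hp, mt-Rnr1, mt-Rnr2 and Pkm. Hp, haptoglobin, which binds free haemoglobin, was at 1714, 918 and 2695 CPM in Whole Tumor 1, 265, 578 and 238 in Whole Tumor 2 and 229 at the border, without overlap (log2 change 2.54 ± 0.77 SE, edgeR adjusted p = 0.0629). It was called in 3 of 20 alternatives, by DESeq2 (adjusted p = 0.0230), by edgeR with DESeq2 size factors (0.0460) and by edgeR in members with a Sftpc UMI (0.0408). With no condition on the keratin sum its log2 change fell to 0.63 (edgeR adjusted p = 0.535). Hp was also found in Csf3r cells, at 594 CPM in Whole Tumor 1 and 1005 in Whole Tumor 2. The mitochondrial ribosomal RNAs mt-Rnr1 and mt-Rnr2 had log2 changes of 1.83 and 1.63 (edgeR adjusted p = 0.135 and 0.144) and were called without the deepest cell of each array (0.0442 for both), and Pkm, the last enzyme of glycolysis, had 1.65 (0.449).

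The gene lists described here were chosen with earlier results of these data known. Over all 197 genes tested, 2 were called by edgeR (1.02%), both higher in Tumor 2. Of 9 tested genes for type 2 identity and lamellar bodies, 1 (Hc) was called higher in Tumor 2 and 0 in Tumor 1. The median log2 change of these 9 was -0.43, against 0.02 over all 197 genes. Medians of the other lists ran from -3.23 (macrophage, 1 gene) to 1.36 (glycolysis and hypoxia, 3 genes). The 3 tested markers were at -1.57 and the 6 mitochondrially encoded genes at 0.99. No list median was tested. Of the lipid synthesis list 4 were tested and 0 called by edgeR; Fasn, fatty acid synthase, came nearest at 204, 660 and 140 CPM in Whole Tumor 1, 2739, 1157 and 1333 in Whole Tumor 2 and 1486 at the border (log2 change -2.27 ± 0.69 SE, edgeR adjusted p = 0.0629). Fasn was called in 4 of 20 alternatives, among them DESeq2 (adjusted p = 0.0477) and edgeR without the deepest cell of each array (0.0442), always higher in Tumor 2. The estimates for Fasn and Scd1, both of fatty acid synthesis, had opposite signs. None of the 3 tested genes of MHC class I, 3 of MHC class II, 6 mitochondrially encoded genes, 9 early response genes or 6 heat shock genes was called by edgeR in all members.

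**Figure D4:**
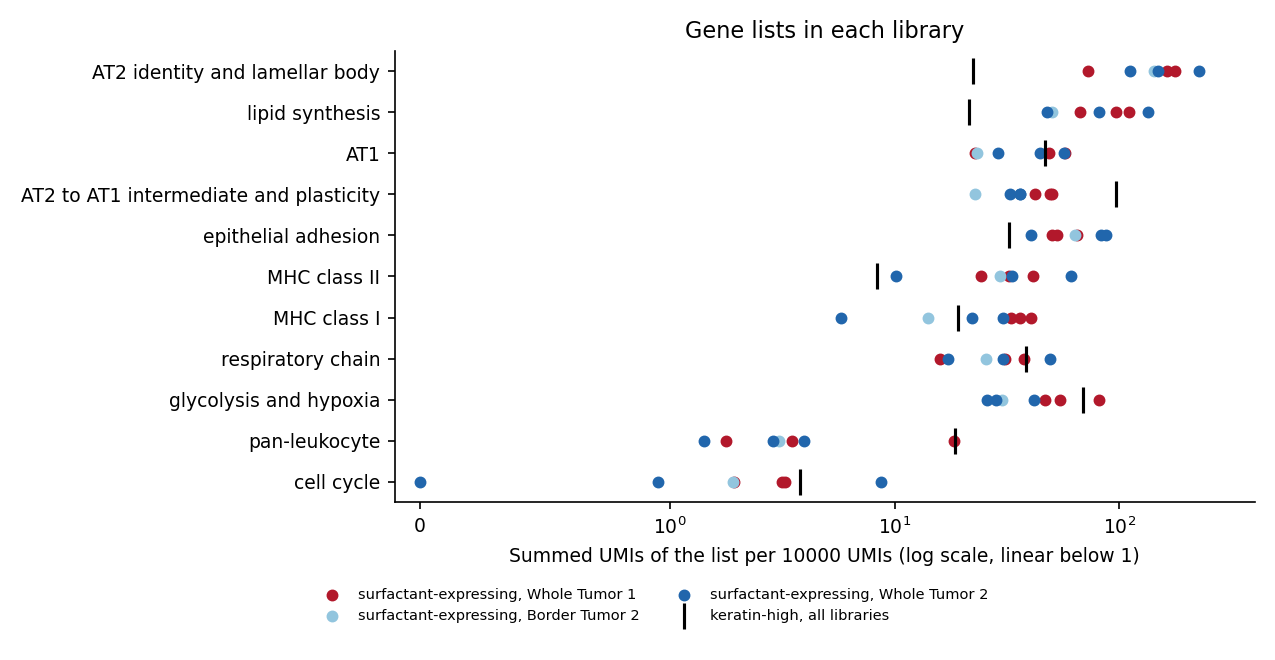
Summed UMIs of 11 gene lists per 10000 UMIs (x axis, log scale above 1) in surfactant-expressing cells. Points are single libraries, and black bars are keratin-high cells of all libraries together. Every library lies above the keratin-high level for type 2 identity and for lipid synthesis; the plasticity list, which holds 4 genes of the rule, and the type 1 list, which holds 1, are drawn with them.

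How the members differ from keratin-high cells is a description, since the rule drew the line between them. Among the 8539 genes with at least 10 UMIs in the pair of classes, 44.3% had a higher level in members (CPM plus 10, median ratio 0.927). The 15 genes outside the rule with the highest ratios were Sftpc, Cxcl15, Scd1, Lcn2, Chi3l1, Hc, Lrrk2, Egfl6, Lgi3, Ager, Dram1, Cpm, Nkd1, Tmem243 and Prrg3. Of the keratin-high cells 164 of 181 came from Tumor 1, against 32 of the 53 members. Within each tumor alone all 15 were higher in members, with ratios from 2.03 to 60.7 in Tumor 1 and from 10.3 to 736 in Tumor 2. The lowest in Tumor 1 was that of Hc, at 69.5 against 29.1 CPM, so its high pooled ratio of 19.6 rests on members of Tumor 2. Sftpc was at 21360 CPM in members and 108 in keratin-high cells. Chi3l1, a chitinase-like secreted protein, was at 4428 and 197 CPM, and Lcn2, the iron-trapping lipocalin, at 1495 and 29.4 CPM. Against all other cells the same rule also named Atp1b1, Selenbp1, Itih4, Fasn, Ptprf, Aqp5, Tspan11 and Kng2.

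All 18 type 2 identity genes with at least 10 UMIs were higher in members, and the list summed to 157 UMIs per 10000 against 22.3 in keratin-high cells and 7.83 in Csf3r cells. Npc2, a cholesterol carrier of lysosomes and lamellar bodies, led it with 5017 against 1036 CPM. Abca3 was at 714 against 56.2 CPM, Napsa, the aspartic protease that processes proSP-B, at 511 against 32.1, and Nkx2-1 at 219 against 20.1. Cebpa and Etv5, transcription factors of type 2 cells, were at 255 against 21.4 and 88.6 against 1.34 CPM.

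Lipid synthesis genes were higher in members than in keratin-high cells in 19 of 25. The list summed to 88.3 UMIs per 10000 in members, 21.5 in keratin-high cells, 41.5 in Csf3r cells and 33.1 in all other cells. Scd1 made up the largest part in members, at 4340 CPM against 82.9 in keratin-high cells. Fasn was at 974 against 81.6 CPM, Scd2 at 484 against 98.9 and Lpcat1, which makes the main surfactant phospholipid, at 349 against 21.4. Plin2, the coat of lipid droplets, went the other way, at 271 against 709 CPM, and Elovl6 had no UMI in members against 38.8 CPM.

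Most type 1 genes were higher in members, at 13 of 16. The list summed to 42.8 UMIs per 10000 in members and 46.5 in keratin-high cells, and to 36.7 against 13.0 without Krt7, which is in the list and in the rule. Ager, the receptor that marks type 1 cells, was found in 34 of 53 members at 1084 CPM against 50.8 in keratin-high cells and in 0.881% of Csf3r cells. Aqp5, the water channel, was found in 21 members (302 against 28.1 CPM), whereas Hopx and Pdpn were found in 6 members each. Of the 34 cells with Ager, 23 also had Sftpc. Ager was at 204, 838 and 1610 CPM in Whole Tumor 1, 1856, 868 and 2047 in Whole Tumor 2 and 534 at the border, with overlap (log2 change -0.81 ± 0.69 SE, edgeR adjusted p = 0.784).

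The list for intermediate and plastic states of tumor progression summed to 40.8 UMIs per 10000 in members against 96.3 in keratin-high cells, with 4 of 17 genes higher in members; Krt7, Krt8, Krt19 and Cldn4 of this list belong to the rule. Without these 4 the sums were 25.0 and 31.2, and 6 of 7 libraries lay below the keratin-high level, at 11.6 to 30.6. The exception was Whole Tumor 1 array 1, at 41.6, the array whose members had the most leukocyte UMIs. Outside the rule, Hmga2, a chromatin protein of embryonic tissue that marks advanced KP tumors, had 1 UMI in 1 of 53 members (5.21 CPM) and was found in 35.9% of keratin-high cells at 316 CPM. All of the Whole Tumor level of Hmga2 in keratin-high cells came from Tumor 1, at 378 CPM, against 0 in the 14 cells of Whole Tumor 2; at the border of Tumor 2, 1 of 3 keratin-high cells held 7 UMIs. Plaur was at 46.9 against 167 CPM, and Lgals3, galectin-3, at 583 against 1030. The lowest ratios outside the rule among widely detected genes were those of Sh3glb1, Psap, Ybx1, S100a14 and Anxa2; Anxa2, a membrane-binding annexin, was at 458 against 2119 CPM.

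MHC class II transcripts, which type 2 cells are known to carry, summed to 33.0 UMIs per 10000 in members, 8.40 in keratin-high cells and 115 in B cells, and all 7 genes were higher in members than in keratin-high cells. Cd74, the invariant chain, was found in 39 members at 1500 CPM. Its arrays overlapped, at 1142, 1144 and 1890 CPM in Whole Tumor 1 and 1635, 578 and 2857 in Whole Tumor 2. Of the 10 pan-leukocyte genes, 10 of 10 were lower in members than in keratin-high cells, summing to 4.58 against 18.6 UMIs per 10000, with Ptprc and Coro1a at 0. Leukocyte UMIs were uneven: their sum ran from 1.43 to 3.98 per 10000 in 6 libraries and was 18.4 in Whole Tumor 1 array 1, where 6 of 10 members had at least 3 such UMIs. Without the 13 members that had at least 3, no gene was called between the tumors, with 90 genes tested and 8 at an unadjusted p under 0.05 in edgeR. Hc was then too low to be tested, and Lyz2 had a log2 change of -2.08 (edgeR adjusted p = 0.365).

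Few UMIs of proliferation genes were captured in members. Mki67 was found in 2 of 53 cells and Top2a in none (0 of 53, which allows up to 5.66% of cells with a UMI by the limit of 3 cells and sets no limit on cells that express it), and the cell cycle list summed to 2.19 UMIs per 10000 against 3.78 in keratin-high cells. Beside the 44.3% of all genes that were higher in members, 3 of 20 respiratory chain genes and 6 of 20 glycolysis and hypoxia genes were higher, while all 7 mitochondrially encoded genes with enough UMIs were.

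A list of gastric and other endoderm genes had its highest level at the border of Tumor 2. The list also holds the broader factors Foxa1, Foxa2, Gata6, Sox9 and Id2, so its sum is not one of other organs alone. Apob, the lipoprotein of liver and gut, had 31 UMIs in the 6 members there, 30 of them in 1 cell, and 0 in the members of all 6 Whole Tumor arrays. Gkn2, gastrokine 2, had 10 UMIs at the border, 3 in Whole Tumor 1 array 2 and 0 elsewhere. The list summed to 33.5 UMIs per 10000 at the border against 2.04 to 7.35 in the arrays, and Apob and Gkn2 gave only part of it. This border level rests on few cells of 1 library and was not tested.

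**Figure D5:**
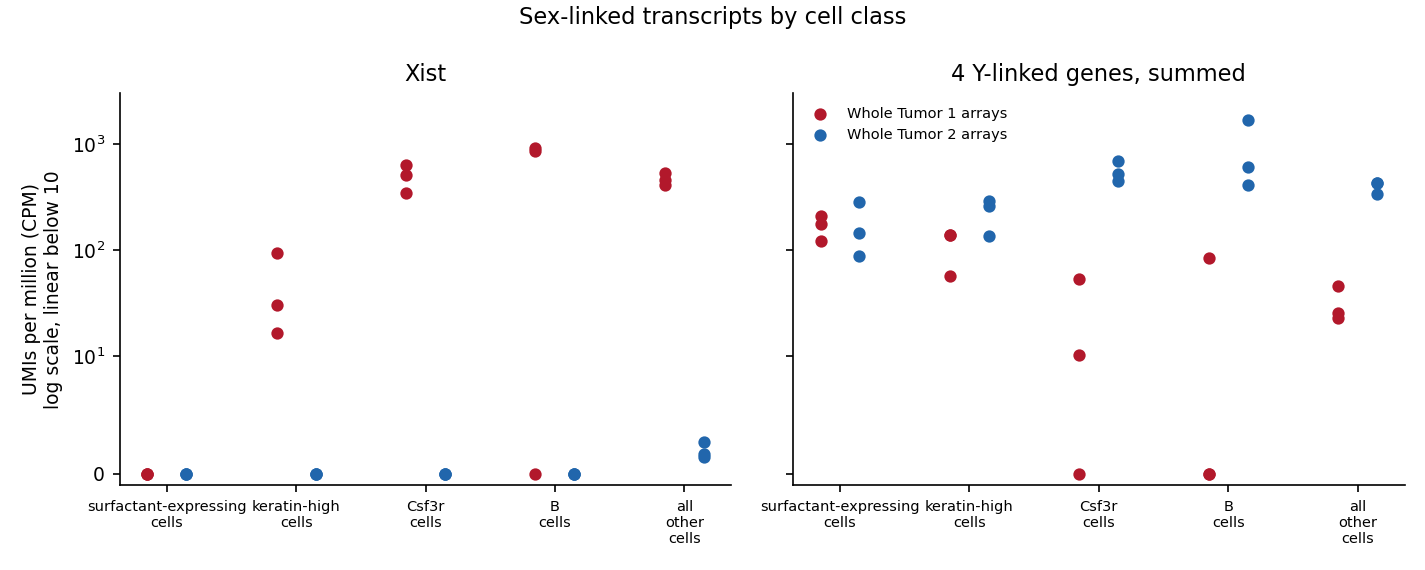
Xist (left) and the sum of 4 Y-linked genes (right) as UMIs per 1000000 (CPM, y axes, log scale above 10) in surfactant-expressing, keratin-high, Csf3r, B and all other cells (x axis). Each point is a Whole Tumor array; some B cell points rest on 1 cell. In Tumor 1 the members have no Xist, whereas all other cells together have 415 to 530 CPM.

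Sex-linked transcripts, which the rule did not use, differed in Tumor 1 between the members and the pool of all other cells. Xist, the RNA that coats the inactive X chromosome of female cells, had 0 UMIs among 115159 in the members of Whole Tumor 1 (a limit of 3 UMIs is 26.1 CPM). In all other cells of the arrays it was at 415, 530 and 454 CPM, and in Csf3r cells at 507, 635 and 343. Ddx3y, Uty, Eif2s3y and Kdm5d, which lie on the Y chromosome, summed to 122, 177 and 210 CPM in the members and to 45.8, 25.5 and 22.6 CPM in all other cells. They were found in 13 of 32 members (174 CPM, exact 95% Poisson interval 106 to 268) and in 2 of 301 Csf3r cells (16.7 CPM, 9.71 to 26.7).

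Keratin-high cells of Whole Tumor 1 had a Y-linked sum of 121 CPM in 43 of 155 cells, and had Xist in 13 cells (56.4 CPM). By array their Y-linked sum was 137, 139 and 57.1 CPM, which in array 1 was above that of the members, and their Xist was 30.4, 94.2 and 16.3 CPM. In Tumor 2 no member had Xist. The Y-linked genes were found there in members (178 CPM in Whole Tumor 2) as in Csf3r cells (636 CPM) and all other cells (419 CPM). Keratin-high cells of Whole Tumor 2 were at 233 CPM (134, 261 and 289 by array), also below Csf3r cells and all other cells together. In each array of Tumor 1 the members thus lay above all other cells together in Y-linked transcripts and below them in Xist. With 3 arrays of 1 mouse an exact paired permutation test cannot go below p = 0.25, so no test was made. One mouse was male and the other female, and the sex of the stem cell line is not given in the sources used here. Chimerism and other sources of this difference were not tested.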

How the data were processed

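Reads were demultiplexed with bcl2fastq 2.17.1.14 and aligned to mm10 with STAR 2.5.2b by the Drop-seq protocol, per the submitters' processing notes and the methods. The authors deposited 1 table per library with the raw counts of UMIs per gene (27923 genes) and barcode. All 4343 barcodes had passed the authors' own filters; those under 200 genes were dropped here, which left 3894, fewer than the study's cells. Doublets were called with Scrublet in scanpy 1.11.5 and kept. Members and gene lists were chosen with earlier results of these data known.

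Member counts were summed per Whole Tumor array and compared with edgeR 4.0.16 (TMM, filterByExpr, quasi-likelihood test, Benjamini-Hochberg adjustment over 205 fitted genes, 8 of them genes of the rule that were not counted as results). The test was tried on simulated data. Shares were compared by exact permutation and given exact 95% Clopper-Pearson intervals. CPM are UMIs per 1000000 UMIs of a class; ratios of classes used CPM plus 10. Levels of different genes were not scaled for length, as UMIs count molecule ends. Intervals and limits of 3 counts cover counting error only. The depth per library was 405627 to 2029200 UMIs.

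Genes named are the 8 markers; from the test, the 10 largest changes in each direction among those called, or the 5 smallest p where none was (1 of these, and 1 allele of the mice, are not reported here); the 15 highest ratios to keratin-high and to all other cells among genes in at least 20% of members; and the leading genes of each list. A few others (Hmga2, Plin2, Elovl6, Gkn2, Apob and the lowest ratios) were picked after their values were seen.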

Additional observations from a re-analysis of the deposited data

Results flagged for a closer look

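The Y-linked level of the members lay above that of the other cells of their own arrays in Tumor 1 and below it in Tumor 2. The members themselves were at 174 CPM in Whole Tumor 1 and 178 in Whole Tumor 2, while all other cells were at 29.8 and 419. The pattern was not particular to the members. Keratin-high cells, which are among the other cells, were at 121 and 233 CPM, on the same side of the pool as the members. In Whole Tumor 1 array 1 keratin-high cells were above the members, at 137 against 122 CPM. Members minus all other cells averaged 139 CPM over the 3 Whole Tumor 1 arrays, positive in each, and -227 CPM over the 3 Whole Tumor 2 arrays, negative in each. The difference between the tumors was not tested, and the members' levels rest on 20 UMIs in Whole Tumor 1 and 9 in Whole Tumor 2.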

How the results depend on the processing

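The difference in share between the tumors (0.884 points) kept its direction in 12 of 14 alternatives and turned with at least 500 genes per cell (-0.0138) and with members plus keratin-high cells as the denominator (-39.1). It ran from 0.142 with cells that have a Sftpc UMI to 2.82 with no condition on the keratin sum and from 0.575 to 1.15 without 1 array; the exact permutation test cannot go below p = 0.1, which it reached without doublets (0.854), without primer-like barcodes and with no condition on the keratin sum. The count of called genes was 2 in the report. It was 1 with cells that have a Sftpc UMI (Hp, higher in Tumor 1) and 1 with at least 500 genes (Hc). With each cell thinned to 1000 UMIs it was 1 (Lyz2, 22 tested). With no condition on the keratin sum, which adds cells mainly in Whole Tumor 1, it was 43 (17 higher in Tumor 1, 429 tested). It was 0 without cells with at least 3 pan-leukocyte UMIs, 5 with DESeq2 and 5 with DESeq2 size factors in edgeR. With no filter on low counts it was 0 of 10230 (269 at an unadjusted p under 0.05 in edgeR). The causes of these changes were not tested. The count was 0 to 3 without 1 array, with 237 to 286 genes tested. Without the deepest cell of each array 3 genes were called, Fasn higher in Tumor 2 and mt-Rnr1 and mt-Rnr2 higher in Tumor 1. Hc was called in 14 of 17 alternatives that tested it and Lyz2 in 11 of 21 (edgeR and DESeq2 adjusted p from 2.64e-05 to 0.149 and from 0.000349 to 0.750), always higher in Tumor 2. Sftpc was higher in Tumor 2 in all 21 and called in 5. Scd1 turned to -0.062 with no condition on the keratin sum. A fit with the replicate number as a block called 5 genes, Hc, Lyz2 and Sftpc (edgeR adjusted p = 0.0243) higher in Tumor 2 and mt-Rnr1 and mt-Rnr2 higher in Tumor 1; the numbers do not pair the arrays, since deviations of same-numbered arrays correlated at 0.135, -0.0969 and -0.10. Sftpc cells, thinning, primer-like barcodes and the deepest cells were alternatives added after seeing the data.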
